A study of Homo sapiens with 12 samples.

Results

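The genes described here encode MHC class I heavy chains, their light chain and the machinery that supplies them with peptides. The rule named 9 members in the deposited count table of 21439 genes: HLA-B, HLA-C, HLA-E, B2M, TAP1, TAP2, TAPBP, PSMB8 and PSMB9. It found rows for 4 of the 9 members (HLA-B, HLA-E, B2M and TAPBP), and 3 of these had enough counts to enter the test. TAPBP did not, and HLA-C, TAP1, TAP2, PSMB8 and PSMB9 were not analysed here.

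RNA-seq was made from 12 libraries of DU145, a human prostate carcinoma cell line, in 4 groups of 3. The siATF6 cells were transfected with an siRNA against ATF6, and the siCtrl cells with the Allstar control siRNA, each cultured for 24 h. The Ceapin cells received 10 µM Ceapin-A7, a small molecule that keeps ATF6 in the endoplasmic reticulum (ER), and the DMSO cells received the solvent, each for 12 h. All 4 groups were given 30 nM thapsigargin (Tg), which empties the calcium store of the ER, for 3 h before harvest, so no group held unstressed cells. Each group is a bulk sample of 1 cell line, in which fewer cells expressing a gene and less RNA per cell cannot be told apart. No label says that replicates came from separate cultures, so the p-values measure the spread between these libraries, which may be technical.

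A class I molecule is a heavy chain, encoded by HLA-B, HLA-C or a relative such as HLA-E, bound to the small protein encoded by B2M. Proteasomes cut cytosolic proteins into peptides, the transporter made by TAP1 and TAP2 carries them into the ER, and a loading complex held together by tapasin (TAPBP) with calreticulin and ERp57 fits them into the groove of the heavy chain. PSMB8 and PSMB9 are catalytic subunits of the immunoproteasome, which interferon induces. The loaded molecule is then shown to CD8 T cells, and HLA-E is read mainly by natural killer cells through CD94 and NKG2A. ATF6 is a sensor of ER stress whose released fragment activates ER chaperone genes.

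The heavy chain genes are near copies of each other, so short reads can match several of them. Coding sequences from the GENCODE v29 annotation of GRCh38 were compared, and over 1086 aligned bases HLA-C was 92.5% identical to HLA-B. HLA-E was 86.8% identical to HLA-B over 1072 aligned bases. The stretch of 60 coding bases most alike between the genes starts at coding base 104 of HLA-B and is shown with its counterparts, where capitals mark a base that differs from HLA-B.
HLA-B: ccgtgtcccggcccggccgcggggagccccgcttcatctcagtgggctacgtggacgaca
HLA-C: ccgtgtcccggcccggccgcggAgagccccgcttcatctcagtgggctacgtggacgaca
HLA-E: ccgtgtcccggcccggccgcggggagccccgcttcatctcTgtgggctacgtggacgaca
The other 2 genes each differed from HLA-B at 1 base there, so a read from this stretch says little of its gene. The least alike stretch of the same length starts at coding base 253 of HLA-B. Both were picked among stretches that align without gaps.
HLA-B: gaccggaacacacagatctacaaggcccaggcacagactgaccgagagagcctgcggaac
HLA-C: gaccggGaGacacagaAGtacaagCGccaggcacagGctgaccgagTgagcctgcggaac
HLA-E: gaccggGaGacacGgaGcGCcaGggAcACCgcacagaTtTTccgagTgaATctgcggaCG
Here HLA-C differed from HLA-B at 8 bases and HLA-E at 19, so such reads separate the genes of the reference. Across the annotated transcripts, 12.2% of the 3173 different 31-base words of HLA-B also occurred in another gene, most of them (8.9%) in HLA-C. In the main transcript of HLA-B the share was 15.6%, and for HLA-E it was 10.3%. For B2M only 1.5% of the words occurred elsewhere. The HLA-B gene (chromosome 6, 31269491 to 31357188, minus strand) also overlaps HLA-C (31268749 to 31272130, minus strand) through a long annotated transcript. HLA-E lies at 30489467 to 30494205 on the plus strand of chromosome 6, TAPBP at 33299694 to 33314387 on its minus strand, and B2M at 44711487 to 44718877 on the plus strand of chromosome 15.

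RefSeq (GRCh38.p14) gave promoter windows, 250 bases before to 50 after the start site, for 8 of the 9 members. Those of HLA-B and B2M are shown because these members changed after ATF6 siRNA. They stand at chr6:31357130-31357429 on the minus strand and chr15:44711267-44711566 on the plus strand. Capitals mark matches on either strand to CCAAT, to the letters of an interferon response element (ISRE, GAAA and GAAA with any pair of bases between them) and to loose NF-kB letters (GGG, any 5 bases, CC).
HLA-B: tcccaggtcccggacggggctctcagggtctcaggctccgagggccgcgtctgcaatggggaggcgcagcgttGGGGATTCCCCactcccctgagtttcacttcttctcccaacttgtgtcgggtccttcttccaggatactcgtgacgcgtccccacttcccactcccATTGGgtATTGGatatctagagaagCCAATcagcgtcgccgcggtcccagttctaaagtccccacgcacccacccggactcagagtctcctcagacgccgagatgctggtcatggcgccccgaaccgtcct
B2M: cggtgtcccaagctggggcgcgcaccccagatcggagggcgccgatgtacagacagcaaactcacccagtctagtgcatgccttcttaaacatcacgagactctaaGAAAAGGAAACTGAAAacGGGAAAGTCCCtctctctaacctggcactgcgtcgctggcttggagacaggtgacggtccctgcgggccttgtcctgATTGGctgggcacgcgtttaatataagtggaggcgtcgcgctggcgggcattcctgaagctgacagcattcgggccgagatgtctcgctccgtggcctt
The B2M window held 2 overlapping ISRE matches, from base −144 to −129 of the start site, beside NF-kB letters. The HLA-B window held no ISRE match, but 4 overlapping NF-kB matches on both strands between −177 and −167 and 3 CCAAT matches. ISRE letters occurred in 3.6% of all 35116 promoter windows, CCAAT in 34.6% and the loose NF-kB letters in 58.7%. Neither ERSE (CCAAT, 9 bases, CCACG) nor the letters TGACGTG, elements linked to ATF6, matched in any window of the 8 members, while 0.1% and 2.0% of all windows held them. These matches describe the letters and say nothing of binding.

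The depth was alike in all libraries, with 17760878 to 19202632 counts in total. ATF6 itself, the target of the siRNA, averaged 25.8 ± 0.810 CPM (counts scaled to library size) in siATF6 and 125 ± 1.08 in siCtrl cells, and 72.9 ± 1.91 in Ceapin and 71.4 ± 1.99 in DMSO cells (SD, n = 3 each). All 6 epithelial markers had rows, with EPCAM at 35.1 to 73.7 CPM. Of 10 leukocyte markers 4 had rows, and CD14 and ITGAM stayed at or under 1.56 CPM. CD74, the invariant chain of class II molecules, reached 6.71 to 19.8 CPM and was higher in DMSO than in siCtrl cells (log2 fold change 1.27, adjusted p = 2.16e-14 by the edgeR quasi-likelihood test). The leukocyte list summed to 7.72 to 9.08 CPM in siATF6 and 8.86 to 9.95 in siCtrl cells, and to 19.6 to 21.4 in Ceapin and 18.0 to 20.6 in DMSO cells.

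Few rows of the table came from the MHC region, which bears on every HLA value given here. Within 3 Mb below and 2 Mb above the HLA-B start site, 46 of 178 protein-coding genes (25.8%) had a row, against 660 of 866 (76.2%) on the rest of chromosome 6 and 76.1% on the other chromosomes. The rows from the window had a median of 16.4 counts per library, against 391.1 on the rest of chromosome 6. Genes that every cell uses were also low there. The ribosomal protein gene RPS18 had 9 to 34 counts, while RPS19 and RPS16 on other chromosomes had 6245 to 8406 and 7409 to 8688. The tubulin gene TUBB had 13 to 49 counts, against 3544 to 5798 for its relative TUBB4B, and HSPA1A had 1 to 7.

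**Figure D1:**
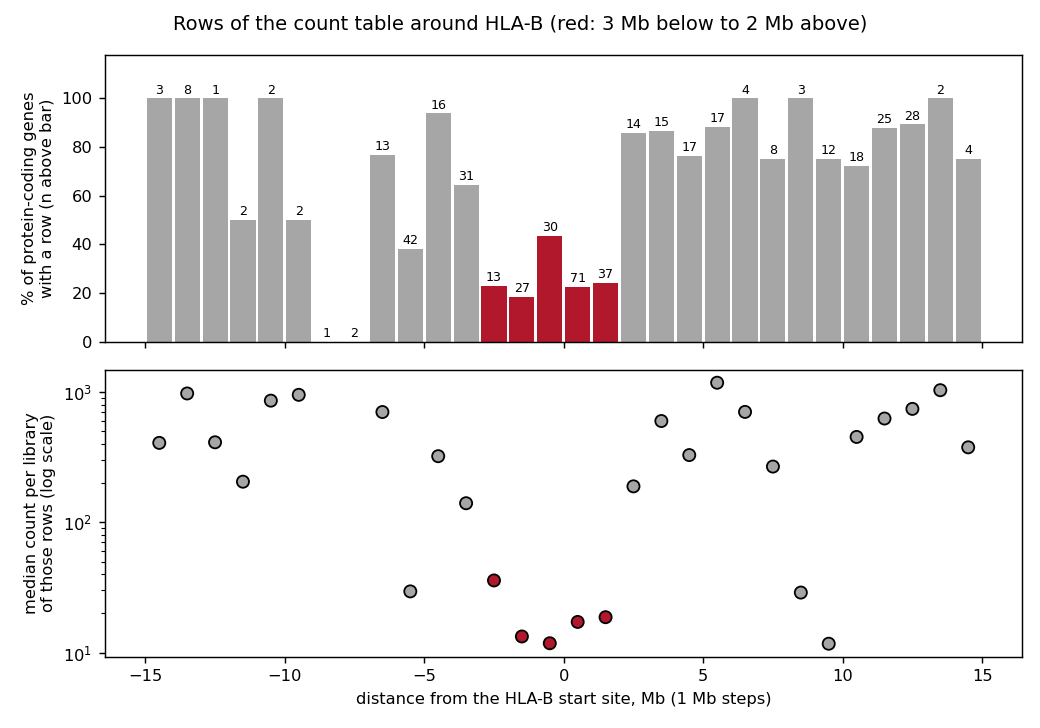
Share of protein-coding genes with a row in the table (upper panel, percent, number of genes above each bar) and median count per library of those rows (lower panel, log scale), in 1 Mb steps of distance from the HLA-B start site. The red window from 3 Mb below to 2 Mb above holds rows for 25.8% of its genes, with a median of 16.4 counts.

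In this window 158 of 178 genes have more transcripts in GENCODE outside the primary assembly, on alternative copies of the region, than in it. Elsewhere in the genome 162 genes are of this kind, and 23.5% of these had a row, with a median of 29.4 counts, against 76.5% of the other genes. Inside the window 25.9% of the 158 genes had a row, with a median of 15.5 counts. Of the 20 other window genes 5 had a row (25.0%), with a median of 30.4 counts. So few genes do not show whether the split seen elsewhere held in the window. HLA-B has 10 transcripts in the primary assembly and 48 outside it, HLA-E 3 and 18, TAPBP 9 and 42, B2M 15 and 14. For HLA-C the numbers are 10 and 81, for TAP1 6 and 21, for TAP2 5 and 32, for PSMB8 6 and 35, and for PSMB9 5 and 42. The part of these copies in the low counts was not tested. All summed, the window took about the same share of each library, 0.00998% to 0.0123% of all counts, and of its 29 tested rows 1 was higher and 4 were lower after ATF6 siRNA (17.2%, against 31.4% of all tested genes by the edgeR test described with the members).

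After ATF6 siRNA HLA-B rose and B2M fell slightly, and with Ceapin only B2M passed the test, also as a slight fall. A gene was called at a Benjamini-Hochberg adjusted p under 0.05 over all tested genes, and fold changes are on the log2 scale with their standard error (SE). By this rule 2 of 3 tested members were called in siATF6 against siCtrl, where 31.4% of all 17823 tested genes were called (16.1% higher, 15.3% lower). In Ceapin against DMSO it was 1 of 3, where 4.62% of all tested genes were called (2.21% higher, 2.41% lower). With 3 members these counts cannot be set against the background, and the values of each gene carry the result.

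B2M, the light chain shared by all class I molecules, had by far the highest measured level of the 4 members with a row. HLA-B, HLA-E and TAPBP lie in the window of low counts (median 16.4 per library), and B2M does not. The measured levels therefore cannot be read as the relative expression of these genes. In siATF6 cells B2M averaged 124 CPM per kilobase of transcript, HLA-B 9.85 and HLA-E 0.385. In siCtrl cells B2M averaged 133 CPM per kilobase, HLA-B 3.65 and HLA-E 0.424. B2M had 213, 211 and 212 CPM in the siATF6 libraries 1 to 3, against 233, 222 and 227 CPM in the siCtrl libraries. It had 137, 138 and 137 CPM in the Ceapin libraries, against 149.9, 148 and 149.7 CPM in the DMSO libraries. Every siATF6 library lay below every siCtrl library, and every Ceapin library below every DMSO library. The log2 fold change was −0.10 ± 0.0234 (SE) after ATF6 siRNA (edgeR adjusted p = 0.00118) and −0.12 ± 0.0264 with Ceapin (edgeR adjusted p = 0.00497). The effects differed by 0.02 ± 0.0353 (log2, 95% interval −0.06 to 0.10), which did not pass the test (edgeR adjusted p = 0.787). The falls are small, 1.07-fold and 1.08-fold, but the spread between replicates of B2M was small too. Its within-group SD was 0.0195 on the log2 scale, and 95.3% of the 1836 genes of 100 to 300 CPM had a larger one.

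HLA-B, a classical heavy chain that presents peptides to CD8 T cells, gave the largest change of the 3 tested members. It had 199, 312 and 357 counts in the siATF6 libraries 1 to 3, against 109, 93 and 109 in the siCtrl libraries. Scaled, these were 10.5, 16.4 and 18.7 CPM in siATF6 cells, against 6.07, 4.80 and 6.07 CPM in siCtrl cells, with no overlap. The log2 fold change was 1.44 ± 0.288, or 2.71-fold (edgeR adjusted p = 1.67e-04). The call held in all alternatives run, with the highest adjusted p in DESeq2 (0.0334).

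With Ceapin the HLA-B libraries scattered widely. The gene had 86, 251 and 74 counts in the Ceapin libraries 1 to 3, against 217, 94 and 67 in the DMSO libraries, or 4.50, 13.7 and 4.13 CPM in Ceapin cells, against 12.0, 5.31 and 3.71 CPM in DMSO cells. A library of each group (Ceapin 2 and DMSO 1) reached the range of the siATF6 libraries, and the groups overlapped. The log2 fold change was 0.08 ± 0.315, with a 95% interval from −0.64 to 0.81 (edgeR adjusted p = 0.948). Without Ceapin 2 it was −0.70 (edgeR adjusted p = 0.257), and without DMSO 1 it was 0.72 (edgeR adjusted p = 0.294).

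The effects on HLA-B differed by 1.35 ± 0.431 (log2, edgeR adjusted p = 0.0196), siATF6 effect minus Ceapin effect. It was the only one of the 3 tested members called for a difference, where 23.4% of all tested genes were (12.3% higher, 11.1% lower). This call depends on single libraries. It was lost without DMSO 1 (0.71, adjusted p = 0.259), siCtrl 2 (1.24, 0.0511), siATF6 3 (1.17, 0.0624), Ceapin 1 (1.08, 0.0663) or Ceapin 3 (1.07, 0.0677), in DESeq2 (1.35, 0.218) and at a threshold of 0.01.

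**Figure D2:**
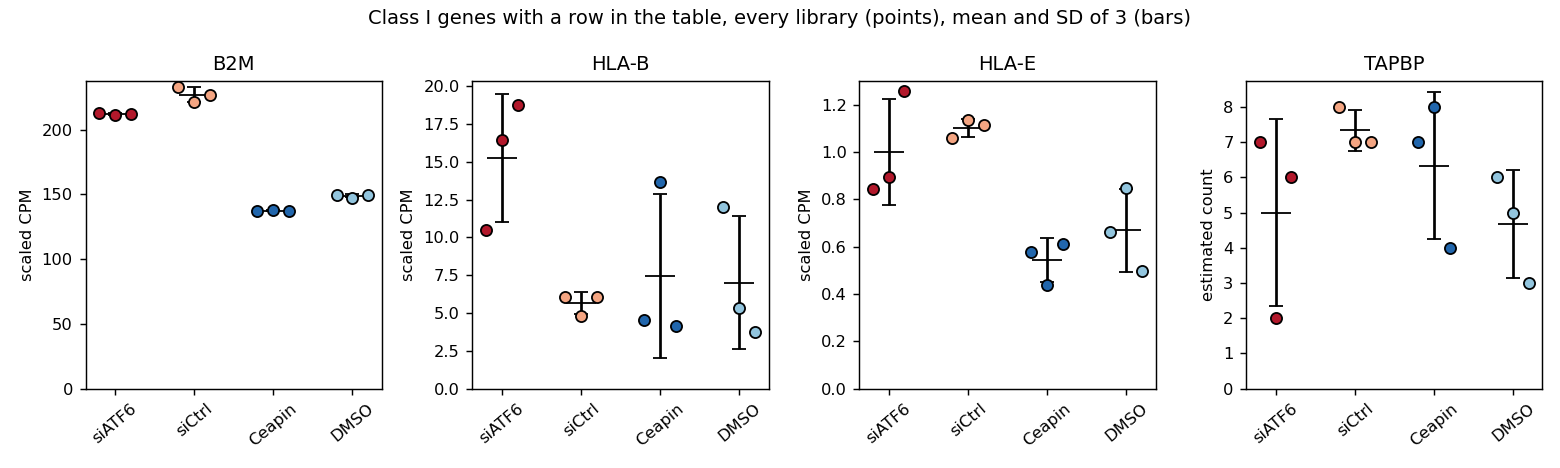
Scaled CPM of B2M, HLA-B and HLA-E and estimated counts of TAPBP in every library (points) of the siATF6, siCtrl, Ceapin and DMSO groups, with the mean and SD of 3 libraries (bars). B2M is lower in siATF6 than in siCtrl and in Ceapin than in DMSO cells without overlap; HLA-B is higher in siATF6 cells, and Ceapin 2 and DMSO 1 stand apart from the rest of their groups.

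The spread of HLA-B was unusual for its level. Its within-group SD was 0.692 on the log2 scale, against a median of 0.116 over the 2638 tested genes of 5 to 15 CPM, and 11 of those (0.417%) had a larger one. The 4 rows of the window at 5 to 15 CPM, HLA-B among them, had a median SD of 0.144. All 29 tested rows of the window, at any level, had a median SD of 0.366. HLA-E had 0.280, below the 0.387 median of genes of 0.5 to 1.5 CPM. The part of shared reads in the spread of HLA-B was not tested on reads, which were not analysed here.

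**Figure D3:**
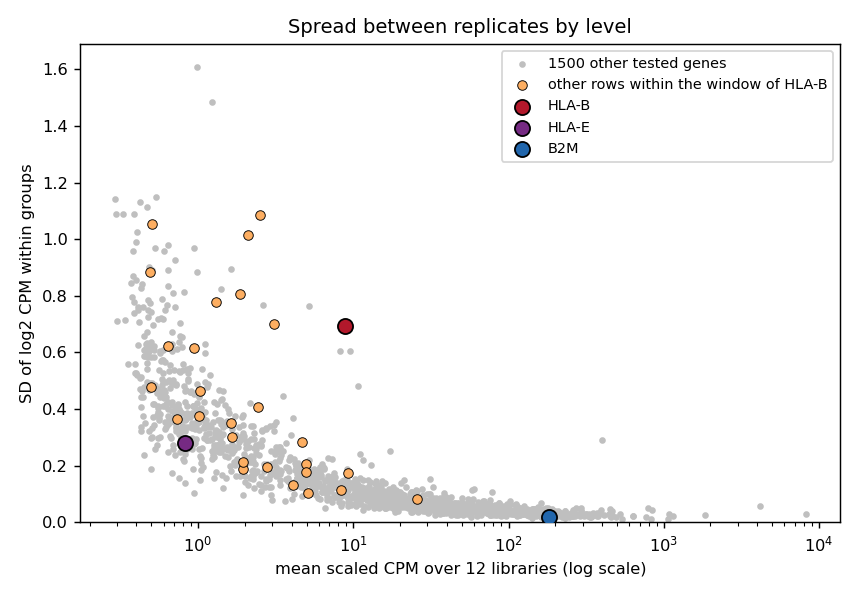
SD of log2 CPM within groups (vertical axis) against the mean scaled CPM over 12 libraries (horizontal axis, log scale) for HLA-B, HLA-E, B2M, the other rows near HLA-B and a random draw of other tested genes. HLA-B, at 0.692, lies above nearly all genes of its level, while B2M, at 0.0195, lies among the genes with the smallest spread.

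HLA-E, the non-classical heavy chain, lay near the limit of the measurement. It had 16, 17 and 24 counts in the siATF6 libraries 1 to 3, against 19, 22 and 20 in the siCtrl libraries, and 11, 8 and 11 in the Ceapin libraries, against 12, 15 and 9 in the DMSO libraries. The groups overlapped in both comparisons. The log2 fold change was −0.14 ± 0.258 after ATF6 siRNA (95% interval −0.73 to 0.46, edgeR adjusted p = 0.749) and −0.30 ± 0.331 with Ceapin (95% interval −1.06 to 0.46, edgeR adjusted p = 0.76). TAPBP, encoding tapasin, had 7, 2 and 6 counts in siATF6, 8, 7 and 7 in siCtrl, 7, 8 and 4 in Ceapin and 6, 5 and 3 in DMSO libraries. A difference in it was not detectable at this depth.

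Across the groups, B2M was highest in siCtrl, then siATF6, DMSO and Ceapin cells, and no neighbours in this order overlapped. HLA-B was highest in siATF6 cells, then Ceapin, DMSO and siCtrl cells, with means of 15.2 ± 4.24, 7.44 ± 5.42, 7.00 ± 4.39 and 5.65 ± 0.737 CPM (SD, n = 3 each), and HLA-E and TAPBP were highest in siCtrl cells. All neighbours in the orders of HLA-B, HLA-E and TAPBP overlapped. The genes most like B2M in their 4 group means were ZFTRAF1 and OSGIN2, with a root mean square log2 difference of 0.0150 and 0.0256 among 9569 genes of at least 10 CPM. The genes most like HLA-B were GNPDA1 and ZDHHC18 (0.193 and 0.241), and those most like HLA-E were PXK and HECA (0.0140 and 0.0455). The means of HLA-E rest on few counts and those of HLA-B on widely spread libraries. With 9569 genes to pick from, a close match to such means may be noise.

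Class I levels also differed between the control groups of the siRNA and inhibitor arms, which differ in transfection, vehicle and culture time at once, so that these cannot be told apart. B2M was lower in DMSO than in siCtrl cells by 0.61 ± 0.0247 (log2, edgeR adjusted p = 2.73e-20). HLA-B did not pass (0.32 ± 0.332, edgeR adjusted p = 0.421). HLA-E fell by 0.72 ± 0.285 (edgeR adjusted p = 0.0291), a call lost without siCtrl 2 (0.0659), siCtrl 3 (0.06), DMSO 1 (0.0635) or DMSO 3 (0.137) and in DESeq2 (0.125). Thus 2 of 3 tested members were called, where 61.9% of all tested genes were (31.2% higher, 30.7% lower). This contrast shares its control libraries with the other comparisons.

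The other genes of the pathway were read from 7 lists by role, with 68 tested genes. After ATF6 siRNA 11 rose and 25 fell (52.9% called, median log2 fold change −0.08), against 31.4% and a median of −0.00 over all tested genes. With Ceapin 1 rose and 5 fell (8.82% called, median −0.02), against 4.62% of all. Where a list had no call in a direction, DESeq2 and limma-voom gave none either. At an unadjusted p under 0.05 the edgeR test then gave, with Ceapin, 1 lower proteasome gene, 1 higher peptidase, 4 higher and 2 lower transcription genes and 1 higher interferon gene, and 0 in each of the other cases in both comparisons.

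**Figure D4:**
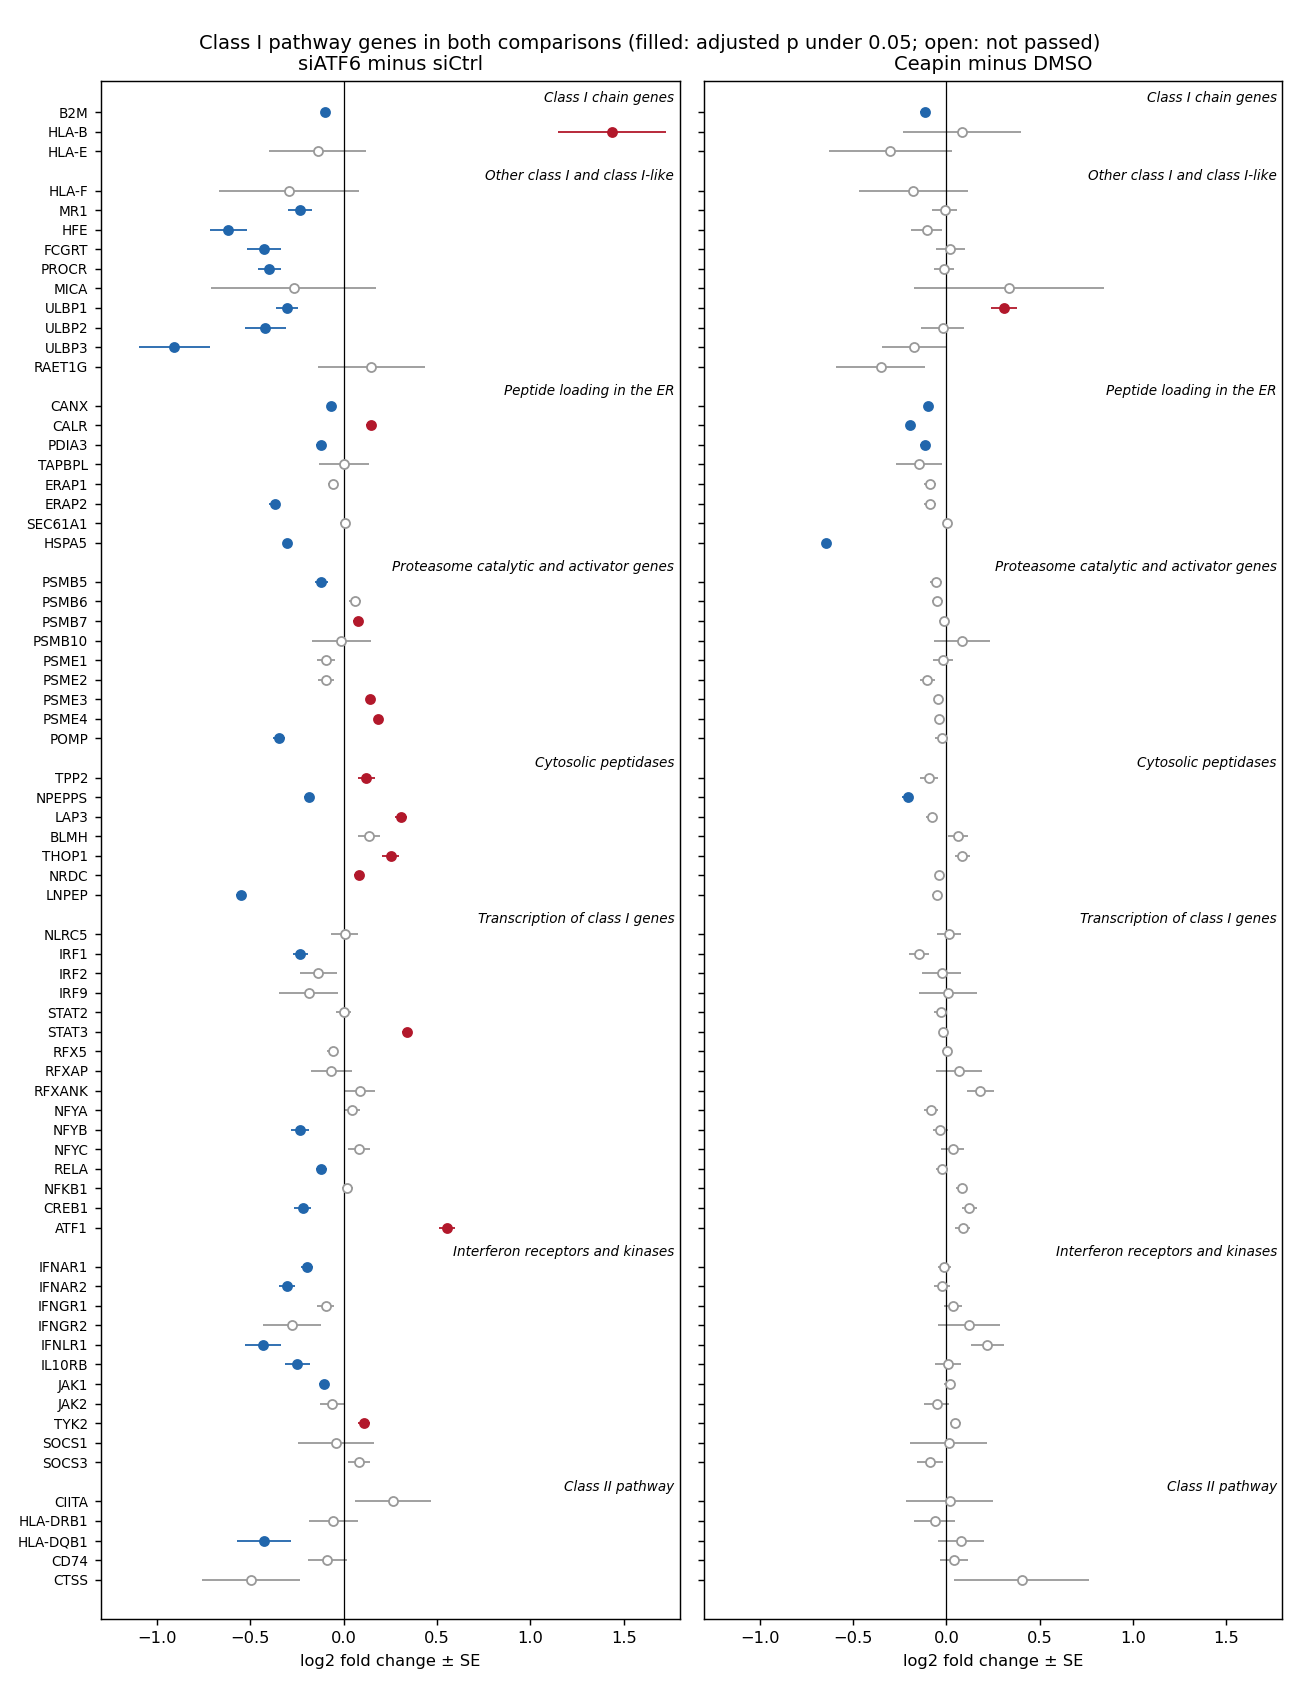
Log2 fold change with its SE (horizontal axes) of tested class I genes and pathway genes, by role, for siATF6 minus siCtrl (left) and Ceapin minus DMSO (right). Filled points passed the test, red higher and blue lower; 36 pathway genes are filled on the left and 6 on the right.

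Class I-like genes gave a one-sided count. Of 11 tested, 7 fell and none rose after ATF6 siRNA (median log2 fold change −0.30). Of all tested genes 15.3% fell and 16.1% rose there. With Ceapin 1 rose and none fell (median −0.01), where 4.62% of all tested genes were called. HFE, which binds the transferrin receptor and limits iron uptake, averaged 6.66 ± 0.202 CPM in siATF6 and 10.2 ± 0.727 CPM in siCtrl cells (−0.62 ± 0.101, edgeR adjusted p = 8.94e-06). PROCR, the endothelial protein C receptor, averaged 18.4 ± 1.04 CPM in siATF6 and 24.3 ± 1.54 CPM in siCtrl cells (−0.40, edgeR adjusted p = 3.85e-06). FCGRT, the heavy chain of the neonatal Fc receptor, which also binds B2M, averaged 6.71 ± 0.417 CPM in siATF6 and 9.02 ± 0.192 CPM in siCtrl cells (−0.43, edgeR adjusted p = 4.26e-04). With Ceapin these 3 genes did not pass, at −0.11, −0.01 and 0.02, and for each the difference between the effects did, at −0.51, −0.38 and −0.45 (edgeR adjusted p = 0.00357, 5.80e-04 and 0.00508).

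ULBP1, a stress-induced ligand of the natural killer cell receptor NKG2D, was called in opposite directions. It averaged 27.4 ± 0.727 CPM in siATF6 and 33.8 ± 3.57 CPM in siCtrl cells (−0.30 ± 0.059, edgeR adjusted p = 1.07e-04). It averaged 23.2 ± 0.340 CPM in Ceapin and 18.7 ± 1.22 CPM in DMSO cells (0.31 ± 0.0692, edgeR adjusted p = 0.00455), a call lost without DMSO 2 (0.25, adjusted p = 0.0561). The groups did not overlap in either comparison, and the effects differed by −0.61 ± 0.0909 (edgeR adjusted p = 3.20e-06). The related ligand ULBP3 was lower in siATF6 cells, at 1.67 ± 0.400 CPM, than in siCtrl cells, at 3.15 ± 0.686 CPM (−0.91, edgeR adjusted p = 2.91e-04).

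In the peptide loading list 1 of 8 tested genes rose and 4 fell after ATF6 siRNA. Of all tested genes 16.1% rose and 15.3% fell there. With Ceapin none of the 8 rose and 4 fell, against 2.21% and 2.41% of all tested genes. HSPA5, the ER chaperone BiP and a textbook ATF6 target that also holds unfolded heavy chains, fell in both, by 0.30 ± 0.0183 after ATF6 siRNA and by 0.64 ± 0.0184 with Ceapin (edgeR adjusted p = 4.61e-15 and 1.47e-22). CALR, the calreticulin of the loading complex, averaged 466 ± 15.3 CPM in siATF6 and 421 ± 3.03 CPM in siCtrl cells, but 469.6 ± 4.86 CPM in Ceapin and 537 ± 7.79 CPM in DMSO cells. Its log2 fold changes were 0.14 and −0.19 (edgeR adjusted p = 4.46e-06 and 1.79e-07), and they differed by 0.34 ± 0.0318 (edgeR adjusted p = 4.29e-10). PDIA3, which encodes ERp57, fell by 0.12 in both comparisons (edgeR adjusted p = 8.35e-05 and 0.00212). CANX, the chaperone calnexin, fell by 0.10 with Ceapin (edgeR adjusted p = 0.00124) and by 0.07 after ATF6 siRNA (edgeR adjusted p = 0.00593), and the siRNA call was lost without siCtrl 3 (0.0859). ERAP2, an ER peptidase that trims class I peptides, averaged 113 ± 3.43 CPM in siATF6 and 146 ± 5.89 CPM in siCtrl cells (−0.37, edgeR adjusted p = 6.95e-12). With Ceapin it did not pass (−0.09, edgeR adjusted p = 0.168), and the effects differed by −0.28 ± 0.0454 (edgeR adjusted p = 1.25e-05). Its neighbour in function ERAP1 passed in neither.

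None of the 9 proteasome genes passed with Ceapin, where 4.62% of all tested genes did. After ATF6 siRNA 3 rose and 2 fell, where 16.1% of all tested genes rose and 15.3% fell. The largest change was in POMP, the assembly chaperone of the proteasome, which averaged 76.1 ± 1.51 CPM in siATF6 and 96.7 ± 1.11 CPM in siCtrl cells (−0.34 ± 0.0321, edgeR adjusted p = 1.70e-10). The activators PSME3 and PSME4 rose by 0.14 and 0.18 (edgeR adjusted p = 4.97e-06 and 3.05e-07). The constitutive catalytic subunits PSMB5, PSMB6 and PSMB7, which the immunoproteasome subunits replace, moved little. PSMB5 fell by 0.12 (edgeR adjusted p = 0.00671), PSMB6 did not pass (0.06, edgeR adjusted p = 0.184), and PSMB7 passed at 0.08 (edgeR adjusted p = 0.0253). The call of PSMB7 was lost without siCtrl 2 (0.07, adjusted p = 0.0946), siCtrl 3 (0.07, 0.0625) or siATF6 2 (0.05, 0.213), and with library totals as the scale (0.06, 0.0623). PSMB10, the immunoproteasome subunit with a row, lay at 2.58 ± 0.0992 CPM in siATF6 and 2.60 ± 0.169 CPM in siCtrl cells, and at 3.05 ± 0.342 CPM in Ceapin and 2.88 ± 0.197 CPM in DMSO cells. It passed in neither comparison.

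The peptidase list holds mostly cytosolic enzymes, which shorten or destroy peptides before transport. After ATF6 siRNA 4 of 7 were higher and 2 lower, where 16.1% of all tested genes rose and 15.3% fell. Of the 2 lower genes 1, LNPEP, does not encode a cytosolic enzyme. LNPEP, an endosomal aminopeptidase also linked to cross-presentation, fell to 134 ± 3.17 CPM in siATF6 cells, against 197 ± 2.50 CPM in siCtrl cells (−0.55 ± 0.0252, edgeR adjusted p = 4.28e-18). LAP3 averaged 90.8 ± 0.808 CPM in siATF6 and 73.4 ± 2.70 CPM in siCtrl cells (0.31, edgeR adjusted p = 2.40e-09), and THOP1, which degrades class I peptides, rose by 0.25 (edgeR adjusted p = 2.88e-05). NPEPPS was the 1 peptidase that fell in both comparisons, by 0.18 after ATF6 siRNA and by 0.21 with Ceapin (edgeR adjusted p = 2.97e-06 and 4.17e-06).

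Among 17 regulators of class I transcription 2 rose and 4 fell after ATF6 siRNA (6 of 17 called, near the 31.4% of all tested genes), and none passed with Ceapin, where 4.62% of all did. NLRC5, the transactivator of class I promoters, averaged 15.03 ± 1.22 CPM in siATF6 and 14.96 ± 0.839 CPM in siCtrl cells, with a log2 fold change of 0.01 ± 0.0725 (edgeR adjusted p = 0.966), and 0.01 ± 0.0634 with Ceapin (edgeR adjusted p = 0.952). IRF1, a factor that binds ISRE letters, averaged 53.9 ± 2.11 CPM in siATF6 and 63.3 ± 4.03 CPM in siCtrl cells (−0.23, edgeR adjusted p = 4.98e-05), and with Ceapin it did not pass (−0.15, edgeR adjusted p = 0.13). ATF1, a CRE-binding factor, averaged 52.3 ± 1.26 CPM in siATF6 and 35.7 ± 0.922 CPM in siCtrl cells (0.55, edgeR adjusted p = 9.47e-13). STAT3 rose by 0.34 (edgeR adjusted p = 7.52e-14), and CREB1, a close relative of ATF1, fell by 0.22 (edgeR adjusted p = 1.86e-04).

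The list of interferon receptors and kinases also holds SOCS1 and SOCS3, which encode neither. Of its 11 tested genes 5 fell and 1 rose after ATF6 siRNA, where 15.3% of all tested genes fell and 16.1% rose. None passed with Ceapin, where 4.62% of all tested genes did. IFNAR1 and IFNAR2, which form the type I interferon receptor, fell by 0.20 and 0.30 (edgeR adjusted p = 2.09e-05 and 1.27e-06). IFNLR1, the specific chain of the interferon lambda receptor, averaged 7.78 ± 0.434 CPM in siATF6 and 10.5 ± 0.567 CPM in siCtrl cells (−0.43, edgeR adjusted p = 5.18e-04). For these 3 genes the difference from the Ceapin effect passed too, at −0.19, −0.28 and −0.65 (edgeR adjusted p = 0.00368, 7.70e-04 and 2.69e-04). JAK1, a kinase of these receptors, fell by 0.11 (edgeR adjusted p = 0.00153).

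The 3′ UTRs were searched for letters that were picked out in earlier work on these data for their frequency in genes that fell after ATF6 siRNA, so the direction was fixed by that choice. The letters GAGTCAT stood in the annotated 3′ UTR of 19.1% of the 2487 tested genes that fell, against 3.49% of the 2639 that rose and 5.41% of the 8148 that did not pass. A part of it, GAGTCA or AGTCAT, stood in 63% of those that fell, 31.9% of those that rose and 35.7% of the rest. Among the pathway genes and members with a 3′ UTR, the full letters stood in 2 of 26 that fell (7.69%), 0 of 10 that rose and 1 of 31 that did not pass. Such a part stood in 16 of 26 that fell (61.5%, about the share of all genes that fell), 1 of 10 that rose and 9 of 31 that did not pass. HFE, PROCR, ULBP1, ULBP3, POMP, LNPEP, IFNAR1, IFNLR1, JAK1, IRF1, CREB1, NFYB and PSMB5 were among the 16. So were CANX and NPEPPS, which were also called lower with Ceapin. FCGRT, ERAP2 and IFNAR2 were called lower only after ATF6 siRNA, HSPA5 and PDIA3 in both comparisons, and none of these carried such a part. The 1 that rose was HLA-B, and B2M carried neither form. The part of these letters in the falls was not tested.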

How the data were processed

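The members and lists were chosen with earlier results of these data known. The authors made stranded total RNA libraries, per the labels' protocols, and used Salmon on hg38, per the submitters' processing notes (version and annotation release not given in the sources used here). Deposited values are expected counts (estimated counts per gene), whole numbers with no scaling and at least 1 in every library; 21201 of 21439 rows had a symbol. No source mentions molecular identifiers, so counts may hold copies of 1 molecule.

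Groups came from titles. Columns named NC were matched to siCtrl by elimination and number. A transfection field gives the Ceapin cells the ATF6 siRNA and the DMSO cells the control siRNA, against their titles and treatment text; ATF6 was not lower in Ceapin than in DMSO cells. All columns were used.

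In R 4.3.3, edgeR 4.0.16 was fitted to all 12 libraries (filterByExpr, 3616 genes removed, 17823 tested; TMM scaling; quasi-likelihood, 1 term per group, 8 residual degrees of freedom; two-sided; Benjamini-Hochberg adjusted p under 0.05 over all tested genes). Tested were siATF6 against siCtrl, Ceapin against DMSO, the difference of these effects, and DMSO against siCtrl. CPM are TMM-scaled; 95% intervals use the standard error and 8 degrees of freedom and, like the SDs, rest on 3 libraries a group. Tested on simulated counts, the fit called 39 of 50 genes changed 1.5-fold in siATF6 minus siCtrl and 37 of 50 in Ceapin minus DMSO. Of 50 genes changed 1.2-fold it called 22 and 23, and it called 13 and 15 unchanged genes. Smaller changes were not simulated. Alternatives were other scalings and filters, DESeq2 1.42.0, limma 3.58.1 (voom), fewer libraries, a replicate block, a threshold of 0.01 and summed HLA-B and HLA-E counts. Named were all members with a row, up to 4 genes per list and comparison by smallest adjusted p, the constitutive proteasome subunits with PSMB10, and NLRC5, IRF1 and ATF6; some genes of these lists are not reported here.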

Additional observations from a re-analysis of the deposited data

Results flagged for a closer look

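Each gene given here was flagged because its change after ATF6 siRNA differed from its change with Ceapin in the test of the difference itself (edgeR, adjusted p under 0.05, as for 23.4% of all tested genes). Values are the siATF6 effect minus the Ceapin effect on the log2 scale. HLA-B stood at 1.35.

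Among class I-like genes the values were −0.51 for HFE, −0.45 for FCGRT, −0.38 for PROCR, −0.61 for ULBP1 and −0.74 for ULBP3. In peptide loading they were 0.34 for CALR, −0.28 for ERAP2 and 0.34 for HSPA5, which was lower in both comparisons and more so with Ceapin. Among proteasome genes they were 0.18 for PSME3, 0.22 for PSME4 and −0.32 for POMP. The peptidases had 0.21 for TPP2, 0.39 for LAP3, 0.17 for THOP1, 0.12 for NRDC and −0.50 for LNPEP. The regulators of transcription had 0.35 for STAT3, −0.20 for NFYB, −0.34 for CREB1 and 0.47 for ATF1. The interferon list had −0.19 for IFNAR1, −0.28 for IFNAR2, −0.65 for IFNLR1 and −0.12 for JAK1. HLA-DQB1 of the class II list had −0.51.

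At the 0.05 threshold 7 of these calls were lost under some of the 19 alternative fits. These were HLA-DQB1 (13 fits, highest adjusted p 0.159), THOP1 (12, 0.175), ULBP3 (7, 0.14), HLA-B (6, 0.259), JAK1 (6, 0.0759), NFYB (4, 0.0812) and TPP2 (3, 0.0711). Leaving out 1 library was enough for each of the 7. The call of HLA-B (adjusted p = 0.0196) was also lost at a threshold of 0.01.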

How the results depend on the processing

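The members called kept their number in every alternative for siATF6 minus siCtrl (2) and Ceapin minus DMSO (1). In the difference between the effects the 1 call was lost in DESeq2 and at an adjusted p under 0.01 (0 each), and leaving out 1 library gave 0 to 1. In DMSO minus siCtrl it was 1 in place of 2 in DESeq2 and at 0.01, and 1 to 2 when 1 library was left out. With HLA-B and HLA-E summed, the HLA-E values of −0.14 (siATF6 minus siCtrl) and −0.72 (DMSO minus siCtrl) were replaced by 1.27 and 0.19, since HLA-B makes up most of the sum. Over all genes, Ceapin minus DMSO gave 472 calls at 0.01 in place of 823. Leaving out 1 library gave 4861 to 5599 calls for siATF6 minus siCtrl (5589 with all), 578 to 846 for Ceapin minus DMSO, 3763 to 4055 for the difference (4167) and 10475 to 11106 for DMSO minus siCtrl (11026); the cause was not tested. Replicate numbers were not taken as pairs, since same-numbered libraries deviated from their group means with r = 0.110, 0.0458 and 0.0183 for siATF6 with siCtrl and −0.0382, −0.0620 and 0.0120 for Ceapin with DMSO. The replicate block gave 5538, 783, 4126 and 11003 calls and the same number of members. Of the pathway genes called, 30 of 36 (siATF6), 5 of 6 (Ceapin), 19 of 25 (difference) and 43 of 49 (DMSO minus siCtrl) kept their call in all of 20 alternative fits (19 for the difference) at the 0.05 threshold, and none reversed; these were run on the lists after seeing the data, without the 0.01 threshold and the HLA sum. After ATF6 siRNA, TPP2, PSMB7, HLA-DQB1, CANX, NRDC and TYK2 lost theirs in some. The ratio of PSMB8 and PSMB9 to PSMB5 and PSMB6 was not run, since the rule found no row for PSMB8 or PSMB9. Depth limits HLA-E, with 8 to 24 counts a library, and TAPBP, with 2 to 8.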

Other observations

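Class II genes were measured as well. Of 11 genes listed 5 had rows and were tested. After ATF6 siRNA 1 fell and none rose, where 31.4% of all tested genes were called. None was called for Ceapin, where 4.62% of all tested genes were. HLA-DQB1, a class II beta chain, averaged 2.81 ± 0.360 CPM in siATF6 and 3.77 ± 0.331 CPM in siCtrl cells (log2 fold change −0.43, edgeR adjusted p = 0.0203), a call lost without siCtrl 1 (0.0581), siCtrl 2 (0.0846) or siATF6 3 (0.131) and in DESeq2 (0.0831).

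Between the control groups of the arms 29 of the 68 pathway genes were higher and 20 lower in DMSO than in siCtrl cells (72.1% called, against 61.9% of all tested genes). CD74 averaged 18.4 ± 1.48 CPM in DMSO and 7.58 ± 0.730 CPM in siCtrl cells, and NLRC5 averaged 22.0 ± 1.11 CPM in DMSO and 14.96 ± 0.839 CPM in siCtrl cells (0.55, edgeR adjusted p = 1.53e-08). IRF1 ran the other way, with 35.1 ± 1.16 CPM in DMSO and 63.3 ± 4.03 CPM in siCtrl cells (−0.85, edgeR adjusted p = 6.37e-17). The peptide loading list had 5 lower and 3 higher of 8, among them SEC61A1 and ERAP1 lower. In this contrast transfection, vehicle and culture time cannot be told apart.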
